A study of Mus musculus with 14 samples.

Results

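A ligand for both partners of the retinoid receptor pair and a treatment labelled AM+CD were compared through their lists of retinoic acid receptor alpha (RARα) peaks, 200 with 9-cis retinoic acid and 227 with AM+CD, which is 427 of the 1529 peaks of the series. The members are all peaks of these lists. A peak counted as shared when its interval met a peak of the other list by at least 1 bp, and both directions were scored. RARα was profiled by CUT&RUN, in which an antibody tethers a nuclease that cuts out the DNA around the bound protein, in 266-6, a line of mouse pancreatic acinar cells. Per the labels, the cells of every group were held in stripped medium for 24 h and then in ligand for another 24 h, with DMSO as the vehicle group and AM580 and CD3254 as the groups given 1 agonist. The treatment is written AM+CD in the labels and not spelled out, and the reading of it as AM580 with CD3254 rests on the matching abbreviations of the peak names. The labels name 3 replicates for each of the 2 treatments but point them to 1 list per treatment, so each list is 1 sample, no spread between replicates can be given and no test of the treatments was possible. The sources used here give neither the doses nor whether a list came from 1 replicate or from several together. Peak lists carry no expression, so the acinar label of the line could not be checked against its markers.

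RARα is a nuclear receptor that acts on DNA together with a partner, a retinoid X receptor (RXR). The pair recognises hexamers related to AGGTCA, most often as direct repeats separated by a few bases, and sits on many of them without ligand, holding co-repressors that are exchanged for co-activators when an RAR agonist binds. 9-cis retinoic acid is an isomer of vitamin A acid that can bind both partners with 1 molecule, whereas AM580 is selective for RARα and CD3254 for RXR. In the embryonic pancreas retinoic acid is known for its part in patterning the foregut endoderm.

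The promoter sequences of 3 genes are printed, 1 that met peaks of both lists and 2 that hold textbook elements of the receptor. Where the listed peaks stood relative to them is given below. Promoter windows of 300 bp (250 bases before to 50 after a start site) were taken from RefSeq on GRCm38.p6, the assembly that mm10 names. Of 32851 windows, 1 met a 9-cis retinoic acid peak and 1 met an AM+CD peak, which is 0.00304% for either list, and it was the same window in both. It belongs to Gm40237, a long non-coding RNA gene (chr4:118547156-118547455, plus strand), and is shown first. The windows of Rarb, the gene of RARβ (chr14:16575427-16575726, minus strand), and Cyp26a1, the gene of the enzyme that clears retinoic acid (chr19:37697558-37697857, plus strand), are shown because each holds a direct repeat with a spacing of 5 bases and both genes are classical targets of the receptor. Capitals mark, on either strand of the Gm40237 window, the hexamer AGGTCA or its variants, and the 2 hexamers of the direct repeat in the others, where TGAACT is AGTTCA read from the opposite strand.
Gm40237: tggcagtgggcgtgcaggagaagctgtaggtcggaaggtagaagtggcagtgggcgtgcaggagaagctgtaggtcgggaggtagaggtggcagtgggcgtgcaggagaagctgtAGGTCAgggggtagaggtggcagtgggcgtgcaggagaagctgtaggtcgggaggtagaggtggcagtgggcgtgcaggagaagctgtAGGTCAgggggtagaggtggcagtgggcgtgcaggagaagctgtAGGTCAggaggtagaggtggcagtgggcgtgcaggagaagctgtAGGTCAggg
Rarb: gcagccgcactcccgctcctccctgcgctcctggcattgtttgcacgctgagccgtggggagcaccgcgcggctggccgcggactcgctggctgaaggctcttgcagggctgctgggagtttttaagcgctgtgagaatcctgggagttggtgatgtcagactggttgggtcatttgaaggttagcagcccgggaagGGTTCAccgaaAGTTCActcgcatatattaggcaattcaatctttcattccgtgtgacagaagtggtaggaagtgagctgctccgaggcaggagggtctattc
Cyp26a1: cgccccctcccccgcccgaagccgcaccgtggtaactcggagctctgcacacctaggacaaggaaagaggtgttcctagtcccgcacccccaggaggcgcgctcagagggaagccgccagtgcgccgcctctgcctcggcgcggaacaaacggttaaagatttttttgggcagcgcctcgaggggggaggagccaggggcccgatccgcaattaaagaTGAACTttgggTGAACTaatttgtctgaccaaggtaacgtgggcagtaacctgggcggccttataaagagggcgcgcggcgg

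The Gm40237 window is a tandem repeat, with 97.6% of its bases equal to the base 88 positions further on, and its 4 hexamers begin at bases 116, 204, 248 and 292 of the window. The 9-cis retinoic acid peak covered 208 bases of it (chromosome 4, 118547248 to 118548672, fold 12.2) and the AM+CD peak 240 bases (118547216 to 118548706, fold 15.05). Both summits lay outside the printed window, that of 9-cis retinoic acid 577 bp past the start site and that of AM+CD 8 bp from it. The DMSO, AM580 and CD3254 lists had a peak at this place as well. Fold here is the authors' enrichment of a peak's summit over the local background of its own list, and folds of the 2 lists are given side by side without being compared. The hexamers searched were AGGTCA as the consensus, AGTTCA as a variant, GGGTCA as another and GGTTCA as the last. At least 1 of them was in 43.7% of all windows, so its presence in this window is common. A direct repeat of any 2 of them with a spacing of 5 was in 32 windows (0.0974%), with a spacing of 2 in 88 (0.268%) and with a spacing of 1 in 73 (0.222%), both strands searched. Not 1 of these windows had a peak of either list within 50 kb. The share over all windows at that distance was not computed. Of all protein-coding genes, 0.558% had a 9-cis retinoic acid peak within 50 kb and 0.631% an AM+CD peak. Beside such low shares, a count of 0 in so few windows says nothing particular of these repeats. The Rarb repeat ends 37 bases before the start site, and the nearest 9-cis retinoic acid peak lay 284 kb from that window and the nearest AM+CD peak 2840 kb from it. For Cyp26a1 the nearest peak of either list was 7952 kb away. A match is a description of letters, and whether any of these repeats was bound was not tested.

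Background coverage, the lowest local background of a list in fragments per base and the measure of depth used here, was 0.544 for 9-cis retinoic acid and 2.127 for AM+CD. Across all 5 lists it ran from 0.544 to 2.36. The peak numbers of a list run along the genome with gaps, so each list is what was kept of a longer call. The 9-cis retinoic acid list kept 200 of at least 265 numbers (75.5%), and the AM+CD list 227 of at least 701 (32.4%). The lists held 101 peaks each at single positions, meaning outside 8 regions known for high signal, unplaced contigs and dense clusters. A dense cluster was 3 or more regions of the 5 joined lists, each within 100 kb of the next. Other places prone to high signal were not screened for, so a single position is not thereby cleared of artefact signal.

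Most peaks of either list had a partner in the other, with the higher share in the shorter list. Of the 200 peaks with 9-cis retinoic acid, 165 met an AM+CD peak (82.5%, 95% Wilson interval 76.6 to 87.1). In return, 161 of the 227 AM+CD peaks met a 9-cis retinoic acid peak (70.9%, 64.7 to 76.4). The shares differed by 11.6 points (Newcombe 95% interval 3.52 to 19.3), where the interval covers counting error only and treats the shares as independent although they score the same overlaps. In 157 pairs neither peak met another, so the shared counts are close by construction. The difference thus mostly restates the list lengths, 200 and 227, and its interval does not measure a difference between the treatments. Unmatched were 35 peaks with 9-cis retinoic acid, among them 1 inside Rarb, and 66 with AM+CD, among them peaks inside Cdk5rap2, Sos2 and Gtf2ird1. In bases, 88.5% of the 9-cis retinoic acid list lay under AM+CD peaks and 67.5% of the AM+CD list under 9-cis retinoic acid peaks. The joined lists made 262 regions, of which 161 held both, 35 held 9-cis retinoic acid alone and 66 AM+CD alone.

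The balance differed between classes of region. At single positions 71 of 101 peaks were shared and 30 unshared in each list (70.3%, 60.8 to 78.3). Overlapping peaks take the same class, and in each of the 71 pairs there neither peak met another. With 101 such peaks in each list, these counts therefore had to be equal. In dense clusters 32 of 34 peaks with 9-cis retinoic acid were shared (94.1%, 80.9 to 98.4) against 30 of 48 with AM+CD (62.5%, 48.4 to 74.8). In the high-signal repeats these counts were 19 of 19 and 18 of 27, and on unplaced contigs 43 of 46 and 42 of 51. The difference in the number of unmatched peaks, 66 against 35, thus had to lie in the other classes, as the plot of peaks by class shows. In each of those classes the AM+CD list also held more peaks, so this placing partly restates the class sizes.

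**Figure D1:**
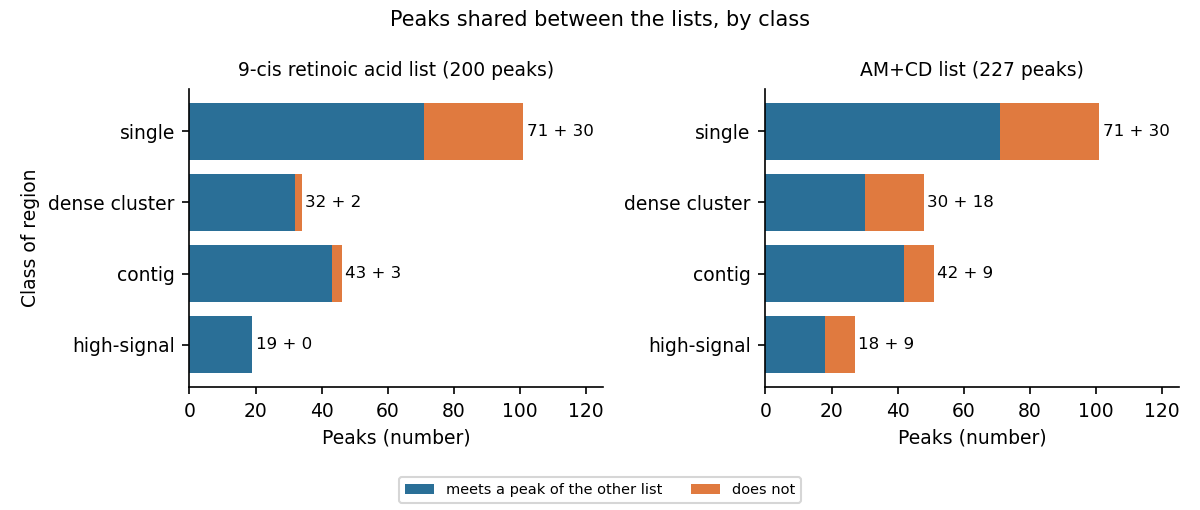
Number of peaks (horizontal axis) in each class of region (vertical axis) in the 9-cis retinoic acid list (left) and the AM+CD list (right), split into peaks that met a peak of the other list (blue) and peaks that did not (orange), with both numbers printed. Single positions show 71 and 30 in both panels, and the dense clusters 32 and 2 on the left and 30 and 18 on the right.

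Some clusters held peaks of 1 list only. Near Gm10354 on chromosome 5 (14914439 to 15054880) AM+CD had 2 peaks and 9-cis retinoic acid 0. On chromosome 8 near 4930467E23Rik (19703215 to 19802575) the numbers were again 2 and 0, and in the cluster around Gm15319 (20275231 to 20682577) they were 4 and 2, with both of the latter shared. The cluster around Duxf3, a double homeobox gene (chromosome 10, 58221687 to 58239725), had 1 AM+CD peak. The cluster of Speer4c, from a duplicated gene family (chromosome 5, 15462575 to 15712262), had 1 peak with 9-cis retinoic acid and 0 with AM+CD. At Tmem267 on chromosome 13 (119596687 to 119602990), by contrast, all 4 peaks of either list were shared, as were all 5 near Gm40035 on chromosome 2. These clusters were chosen after their values were seen.

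Where the lists met, they met closely. The smallest overlap was 306 bp, far above the 1 bp required, and the nearest unmatched peak to a peak of the other list was 311 bp away on the AM+CD side and 918 bp away on the 9-cis retinoic acid side. In 157 pairs each peak met no other, and 4 AM+CD peaks each covered more than 1 peak of the other list. Within these 157 pairs the summits lay a median of 18 bp apart (0 to 986), and 123 of them (78.3%, 71.3 to 84.1) were within 50 bp. The AM+CD peak was the wider in 150 of 157 (95.5%, 91.1 to 97.8), at a median of 584 bp against 496 bp, and the median ratio of widths was 1.11. The list of wider peaks was also the one of higher coverage, and the part of depth in the widths was not tested.

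**Figure D2:**
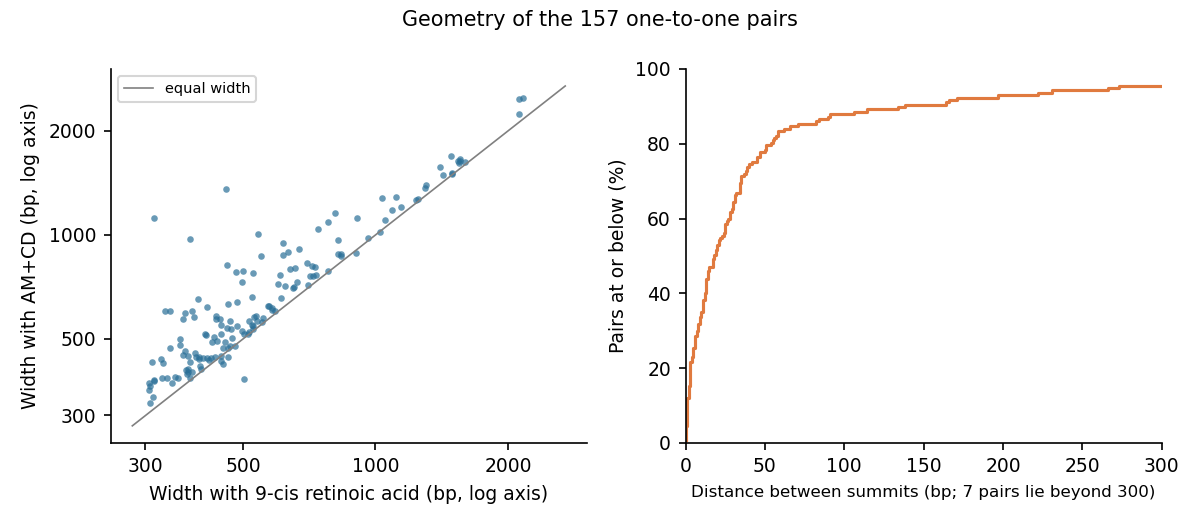
Left, width of each of 157 paired peaks with AM+CD (vertical, bp, log axis) against its width with 9-cis retinoic acid (horizontal, bp, log axis), each point a pair and the line equal width; 150 points lie above the line. Right, share of the pairs (vertical, %) whose summits lay at or below a distance (horizontal, bp), with 78.3% within 50 bp.

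The strongest shared places at single positions sat in or near genes of varied function. The best mean rank by −log10 q (the authors' significance of a peak within its own list) was that of a region inside the span of Mdga2, a synaptic adhesion gene (chromosome 12, 67059172 to 67059893 with 9-cis retinoic acid and 67059167 to 67059927 with AM+CD). It ranked 16 of 200 with a fold of 22.4 and a summit pileup of 582 fragments in the first list, and 18 of 227 with a fold of 27.3 and 1626 fragments in the second, with summits 2 bp apart. Next came regions in the span of Cldn34d, a claudin gene (X chromosome, from 76598576, folds 23.3 and 29.2), and 21081 bp from Ly6c2, a Ly6 surface antigen gene (chromosome 15, from 75085484, folds 9.92 and 10.5). Both peaks of each pair were within the 26 highest of their lists. The other named places were in the span of Kctd16, an auxiliary subunit gene of the GABA-B receptor (chromosome 18, from 40308020, 21.2 and 25.9), and in that of Atrnl1, an attractin-like gene (chromosome 19, from 58113271, 22.2 and 28.8).

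A shared region in the span of Smo, the gene of the Hedgehog signal transducer Smoothened, covered chromosome 6 from 29747892 to 29748672 with 9-cis retinoic acid (fold 14.1, pileup 121 fragments). With AM+CD it ran from 29747883 to 29748969 (fold 19.2, 380 fragments), with the summits 11 bp apart. A region 8361 bp from P4ha2, a collagen prolyl hydroxylase gene (chromosome 11, from 54140029), had folds of 14.3 and 17.8, and one 15572 bp from Gtpbp4, a ribosome assembly GTPase gene (chromosome 13, from 9011688), had 23.1 and 32.1. Of the 10 best, the remaining 2 (chromosome 12, from 74803892, and chromosome 18, from 3004601) had no protein-coding gene within 50 kb. Among all 71 shared single positions 22 had none, in either list. The gene table gives spans without exons, so no peak could be placed in an exon, an intron or a UTR.

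Of the remaining shared places 3 are given, picked after their values were seen and standing for no group. Jarid2, a gene for a partner of the Polycomb repressive complex, held one from 44869572 on chromosome 13, with pileups of 41 fragments with 9-cis retinoic acid and 117 with AM+CD. Cdk8, the gene of the Mediator kinase, held one from 146260979 on chromosome 5, with 41 and 192 fragments and summits 6 bp apart. Summits coincided to the base at Lars2, a mitochondrial tRNA synthetase gene (chromosome 9, from 123461800, 41 and 191 fragments).

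Unmatched peaks of the 9-cis retinoic acid list lay mostly in its weaker part. Every one of its 100 peaks of highest −log10 q had an AM+CD partner (0 of 100 unmatched, Wilson upper bound 3.70%), and the first unmatched peak stood at rank 124. The 50 peaks of lowest −log10 q held 29 of the 35, beside 21 shared ones, and the 50 next above them 6. Their median fold was 6.48 (2.497 to 10.2) against 8.70 (2.10 to 32.1) among the shared, and their median −log10 q 4.99 against 42.8. A median summit pileup of 10 fragments (6 to 74) stood against 64 (9 to 45851), and a median width of 386 bp against 500 bp. Overlap was scored on positions alone, and the part of depth in this difference was not tested.

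The peak in the span of Rarb was among the 24 that no other list held (chromosome 14, 16859535 to 16859838, fold 6.61, −log10 q 5.39, rank 173 of 200). Its summit, at a pileup of 10 fragments over a background of 0.663, lay 284 kb upstream of the start site whose window is printed above, inside a span of 651493 bp. The nearest AM+CD peak was 2555897 bp from it, and 5 AM+CD peak numbers were missing between the kept peaks on either side of this place. At Gpbp1, a gene for a GC-rich promoter binding protein, the peak stood 11964 bp away (chromosome 13, 111502092 to 111502404, fold 7.49, 11 fragments). Hsf2, a heat shock factor gene, had one 32543 bp away (chromosome 10, 57450837 to 57451223, fold 6.81, 12 fragments). These regions were in no list but that of 9-cis retinoic acid.

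Other unmatched places had company in a list with 1 agonist. Clasp2, a gene for a microtubule plus-end protein, held one in its span (chromosome 9, 113756388 to 113756890, fold 7.42), and the chromatin organiser gene Satb1 had one 35856 bp away (chromosome 17, 51869146 to 51869555, fold 7.13). Both also had an AM580 peak and neither a CD3254 or DMSO peak. Acvr1, a type I BMP receptor gene (chromosome 2, 58426011 to 58426402, 20036 bp away, fold 6.96), and Mvb12b, an ESCRT-I subunit gene (chromosome 2, 33933934 to 33934369, 45988 bp away, fold 8.18), had DMSO, AM580 and CD3254 peaks and lacked AM+CD alone. The same pattern marked the region 32876 bp from Scaf8, an RNA polymerase II binding factor gene (chromosome 17, 3081689 to 3082096, fold 9.14), the one 28181 bp from Speer4c (chromosome 5, 15681019 to 15681324, fold 4.98) and the strongest unmatched peak of all, at rank 124 (chromosome 6, 3201184 to 3201620, fold 10.2, no protein-coding gene within 50 kb). A region in the span of Gm9495 (chromosome 8, 69425075 to 69425542, fold 9.90) had DMSO and CD3254 peaks. The 4 other named peaks had no protein-coding gene within 50 kb and no other list, with folds of 6.80 to 8.66.

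Unmatched AM+CD peaks were also most frequent among weak peaks, but some stood near the head of their list. From the highest to the lowest quartile by −log10 q, 8 of 57, 10 of 57, 14 of 56 and 34 of 57 peaks were unmatched. The lowest quartile thus had 59.6% unmatched (46.7 to 71.4), beside 58.0% (44.2 to 70.6) in that of the 9-cis retinoic acid list. Of the 113 highest by −log10 q, 18 had no 9-cis retinoic acid partner (15.9%, 10.3 to 23.8), and the best of them stood at rank 6. That peak lay in a region known for high signal near the start of chromosome 12 (3109872 to 3110199, fold 40.3, 8312 fragments at the summit). Another 5 of the 15 named lay in regions of high signal, on chromosomes 2, 14 and 9, with folds of 2.05 to 3.74, and 1, with a fold of 8.02, belonged to the dense cluster near Scaf8 (chromosome 17, 3026995 to 3027422). Median −log10 q over all 66 was 35.8 (1.77 to 9835) against 150 among the shared, the median fold 6.55 against 10.4 and the median pileup 82.5 fragments against 227. At single positions the median −log10 q was 60.5 among the unmatched and 119 among the shared, the median pileup 68 fragments against 146 and the median fold 16.6 against 17.8.

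**Figure D3:**
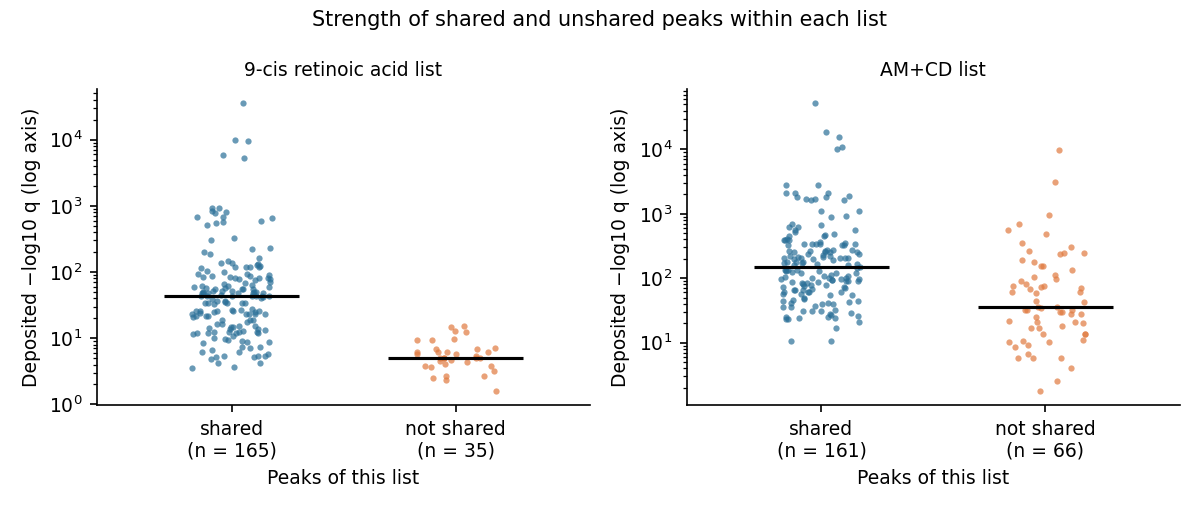
Deposited −log10 q (vertical, log axis) of the peaks that met the other list (blue) and those that did not (orange) in the 9-cis retinoic acid list (left) and the AM+CD list (right); each point is a peak and each bar a median. The unmatched peaks on the left lie between 1.597 and 15.5, and those on the right between 1.77 and 9835.

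Many of the strong unmatched AM+CD places were narrow. Some lay in or near genes, which was not particular to them. A protein-coding gene was within 50 kb for 98 of all 175 AM+CD peaks on the main chromosomes. The strongest at a single position stood 35072 bp away from the p21-activated kinase gene Pak3 (X chromosome, 143483005 to 143483294, fold 35.0, 426 fragments). Next were one 14745 bp from Dpy19l2, a gene of sperm head formation (chromosome 9, 24542015 to 24542302, fold 32.4, 316 fragments), and one 48281 bp from Tcp10c (chromosome 17, 13305955 to 13306291, fold 28.4, 287 fragments). Cdk5rap2, a centrosome gene, held one in its span (chromosome 4, 70378122 to 70378415, fold 31.1, 240 fragments). Tmem196 had one at 7434 bp (chromosome 12, 120028676 to 120029008, fold 30.4) and Pigk, a GPI transamidase subunit gene, one at 12135 bp (chromosome 3, 152701655 to 152701950, fold 25.3).

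Sos2, a Ras exchange factor gene, held 2 unmatched AM+CD peaks in a span of 98092 bp. The stronger (chromosome 12, 69654057 to 69654341) had a fold of 26.4 and the weaker (69608358 to 69608777) one of 12.7. Both had DMSO and CD3254 peaks, and the weaker had an AM580 peak as well. Inside 2210408I21Rik a region with a fold of 27.1 and 178 fragments (chromosome 13, 77438910 to 77439160) was the sole one of the 15 named with no DMSO peak, and it had a CD3254 and no AM580 peak. Further down, and named after their values were seen, were peaks in the spans of Gphn, the gene of the synaptic scaffold gephyrin (fold 21.0), Taf4b, a TFIID subunit gene (18.7), Slc8a3, a sodium-calcium exchanger gene (16.4), and Gtf2ird1, a transcription factor gene (10.9). The first 3 had DMSO, AM580 and CD3254 peaks and lacked 9-cis retinoic acid alone, while Gtf2ird1 lacked DMSO as well. At the foot of the list, Fetub, the fetuin B gene (chromosome 16, 22928509 to 22928838, 16 fragments), and Rchy1, a ubiquitin ligase gene at 20221 bp (chromosome 5, 91928245 to 91928621, 17 fragments), had peaks with AM+CD alone.

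Missing peak numbers were more frequent in the AM+CD list as a whole, 474 of at least 701 against 65 of at least 265 with 9-cis retinoic acid. At 42 of the 66 unmatched AM+CD places (63.6%, 51.6 to 74.2), among them those of Cdk5rap2, Pigk, Gphn and Taf4b, no 9-cis retinoic acid number was missing between the kept neighbours. At 33 of the 35 unmatched 9-cis retinoic acid places at least 1 AM+CD number was missing (median 4 numbers), Rarb included. The share over all gaps of either list was not computed, so these counts are not shown to be particular to the unmatched places. A peak that was called and then removed cannot be told apart from one that was never called where a number is missing. The part of depth and of removed peaks in the unmatched sets was not tested.

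Presence in the other lists separated the sets further. Of the 165 shared 9-cis retinoic acid peaks, 164 met a DMSO peak (99.4%, 96.6 to 99.9) and 162 were in all 3 other lists (98.2%, 94.8 to 99.4). The exceptions were 3 weak regions. One in the span of Peak1, a pseudokinase gene (chromosome 9, 56223572 to 56224050), lacked DMSO and CD3254 and had pileups of 10 fragments with 9-cis retinoic acid and 21 with AM+CD. One 6125 bp from B230307C23Rik (chromosome 16, 98022881 to 98023221) and one on chromosome 4 (78773675 to 78774177) lacked AM580. No region shared by these lists was present with both single agonists and absent with DMSO.

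Of the 35 unmatched 9-cis retinoic acid peaks, 9 met DMSO (25.7%, 14.2 to 42.1), 9 AM580 and 9 CD3254, and 24 were in no other list (68.6%, 52.0 to 81.4). Those 24 all lay at single positions, at ranks 147 to 200 with a median pileup of 9 fragments (6 to 13). Of the 66 unmatched AM+CD peaks, 43 met DMSO (65.2%, 53.1 to 75.5), 48 AM580 (72.7%, 61.0 to 82.0) and 59 CD3254 (89.4%, 79.7 to 94.8), and 5 were in no other list. With 36 of the 66 in all 3 others (54.5%, 42.6 to 66.0), the 9-cis retinoic acid list was the only one without a peak there. A further 11 had AM580 and CD3254 peaks and no DMSO peak, 6 had CD3254 and 1 AM580 as sole company. The DMSO list was used for both directions, and the AM580 and CD3254 lists differ from each other in length and depth, with 323 and 493 peaks and coverages of 0.985 and 2.36.

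**Figure D4:**
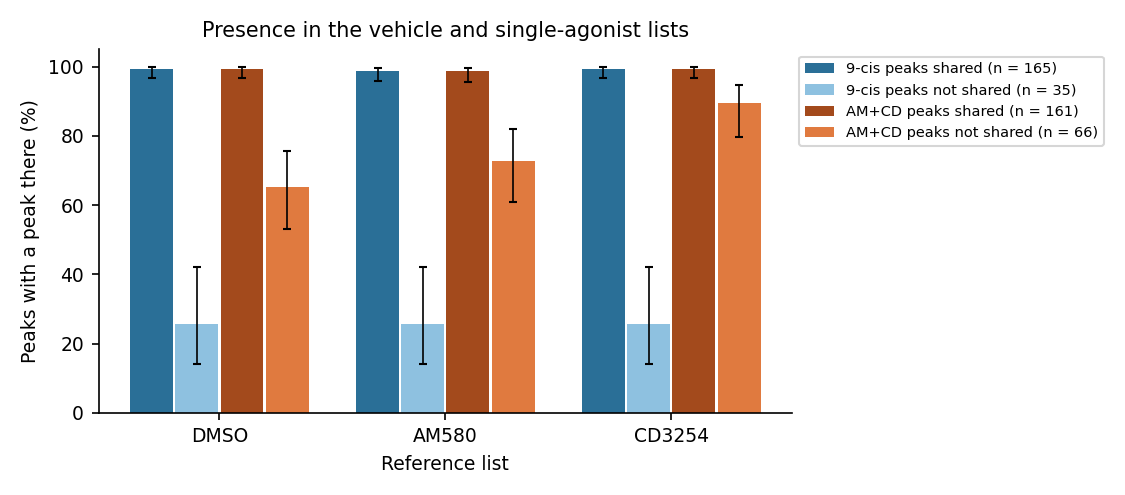
Share of peaks (vertical, %) with a peak in the DMSO, AM580 or CD3254 list (horizontal) for 4 sets, the shared and unshared peaks of the 9-cis retinoic acid list and of the AM+CD list; bars start at 0 and error bars are 95% Wilson intervals for counting error. Both shared sets stand at 98.8% or above, the unshared 9-cis retinoic acid peaks at 25.7% and the unshared AM+CD peaks between 65.2% and 89.4%.

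Neither list was a list of promoters. On the main chromosomes 149 of 154 summits with 9-cis retinoic acid and 170 of 175 with AM+CD could be measured against start sites. Those on chromosome 18 could not, as no start site was listed there. Of the measured summits 0 in either list lay within 1000 bp of a protein-coding start site. The nearest stood 2047 bp and 1141 bp away, the latter at Duxf3, and the medians were 91553 bp and 88720 bp. The shares of the genome near start sites and inside gene spans were not computed. The counts near start sites and in spans therefore stand without a background and do not show avoidance or preference. Protein-coding gene spans held 38 of 154 (24.7%, 18.5 to 32.0) and 44 of 175 (25.1%, 19.3 to 32.1). Shared and unshared peaks were near each other in this, with 31 of 122 (25.4%) and 7 of 32 (21.9%) in a gene span in the 9-cis retinoic acid list, and 31 of 119 (26.1%) and 13 of 56 (23.2%) in the AM+CD list. At single positions the unshared shares were 7 of 30 with 9-cis retinoic acid (23.3%, 11.8 to 40.9) and 12 of 30 with AM+CD (40.0%, 24.6 to 57.7), beside 26 of 71 shared peaks in either list (36.6%, 26.4 to 48.2), with intervals that overlap.

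**Figure D5:**
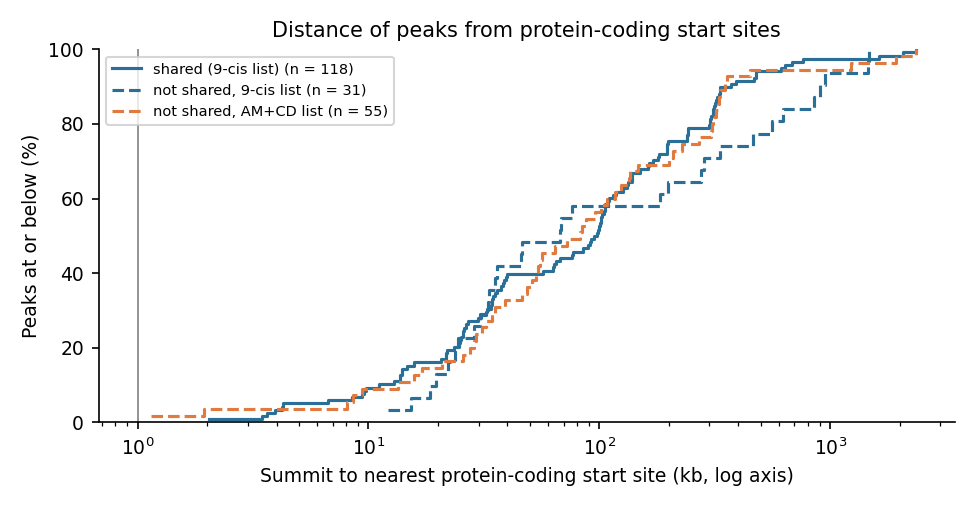
Share of peaks (vertical, %) whose summit lay at or below a distance (horizontal, kb, log axis) from the nearest protein-coding start site, for shared peaks of the 9-cis retinoic acid list and the unshared peaks of either list; the grey line marks 1 kb. No curve has risen at that line, and the medians are 95.9 kb for the shared, 67.5 kb for the unshared 9-cis retinoic acid peaks and 82.7 kb for the unshared AM+CD peaks. Peaks without a listed start site on their chromosome are left out.

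Genes of the retinoid pathway were looked up in both lists. Over all 21883 protein-coding genes, 122 (0.558%) had a 9-cis retinoic acid peak within 50 kb and 138 (0.631%) an AM+CD peak. Of 28 targets of the receptor, among them the receptor genes Rara, Rarb and Rarg, the retinoic acid hydroxylases Cyp26a1 and Cyp26b1 and the retinol importer Stra6, 1 had a 9-cis retinoic acid peak (Rarb) and 0 an AM+CD peak, a count too small to set against that background. Within 100 kb the shares over all protein-coding genes were 1.01% (221) and 1.18% (258). At that distance Fgf8, a growth factor gene with a retinoic acid element, was added in both lists through a shared region in the span of Fbxw4 (chromosome 19, 45649935 to 45650356 and 45649935 to 45650375, folds 16.5 and 25.2). That region was also in the DMSO, AM580 and CD3254 lists. Neither list had a peak within 100 kb of the 20 genes of retinoid metabolism and transport or the 28 nuclear receptor and co-regulator genes. At those shares 0 of 20 or 0 of 28 is near the background and says nothing particular of these genes. For Rxra, the gene of RARα's main partner, the nearest peak was 421 kb away in either list.

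No peak of either list lay within 100 kb of 18 LXR and PPAR target genes such as Abca1 and Angptl4, targets of other RXR heterodimers. The same count of 0 held for 22 Hox and related homeobox genes, 25 acinar genes such as Ptf1a and Cpa1, 13 duct genes such as Sox9 and Krt19 and 14 endocrine genes such as Ins1 and Gcg. These lists are short beside shares near 1% of all genes, so their counts are not results about the groups. Together 1 of 168 listed genes had a 9-cis retinoic acid peak within 50 kb and 0 of 168 an AM+CD peak. Absence from these lists means that no peak was kept there and does not show that the receptor was absent.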

How the data were processed

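RARα CUT&RUN peak lists of 266-6 cells were analysed, 1 list per treatment. Per the submitters' processing notes the genome build was mm10 and the tools were MACS2 2.2.7.1, Bowtie2 2.5.1 and SAMtools 1.18, beside FastQC and bedtools, and libraries had 9 PCR cycles per the labels. The sources used here do not state the control, the thresholds or any later selection of peaks. The deposited lists hold a fold over local background (a ratio), −log10 p and −log10 q for each peak, and a score that was not used. In the main results these values were compared only within a list, and folds and pileups of both lists stand side by side without a comparison. Coverage, recovered from fold and −log10 p, was set between lists as a measure of depth. Limits on −log10 q were applied to both lists in the alternatives only.

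Overlap, classes and intervals were computed with Python 3.11.15, pandas 2.3.3 and SciPy 1.17.1. Whole summit pileups were recovered from fold and −log10 p within a relative 0.0002, and the lowest background served as coverage. Classes used 8 high-signal regions and joined regions of all 5 lists. Genes and promoters came from RefSeq tables of GRCm38.p6, and all 168 listed genes matched. Named peaks are the 15 unmatched peaks of highest −log10 q outside contigs in each list, the 10 shared single positions of best mean rank, shared regions without DMSO and listed genes, and others are marked as picked later. Members and lists were chosen with earlier results of these data known. Overlap scoring and pileups were tested on simulated data. Intervals cover counting error only, since neighbouring peaks are not independent.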

Additional observations from a re-analysis of the deposited data

How the results depend on the processing

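No paired analysis was possible because each treatment has 1 list, which also leaves no replicate to leave out. Of 76 alternative values 55 stayed within the interval of the reported share or within 1.5 times the reported count, and 21 moved. A share and its unmatched count were tallied apart although both score the same overlaps, so these values are not independent checks. Requiring 50% of the shorter peak changed neither direction. With summits within 100 bp, 70.5% of 9-cis retinoic acid peaks (59 unmatched) and 62.1% of AM+CD peaks were shared. With −log10 q of at least 5 in both lists, the 9-cis retinoic acid share was 90.4% (17 unmatched), while AM+CD had 68 unmatched. At 10 in both lists it was 97.2% (4 unmatched) and the AM+CD share 64.2% (78 unmatched). At 10 in the scored list alone the 9-cis retinoic acid values were again 97.2% and 4, and AM+CD had 73.9% shared and 57 unmatched. Trimmed to 200 peaks each, the AM+CD share was 78.5% (43 unmatched) beside 80.5% for 9-cis retinoic acid (39 unmatched). Lists of equal length in which most pairs are one to one must have near equal shares. Trimmed to 100, the AM+CD share was 83.0% (17 unmatched) and the 9-cis retinoic acid list had 16 unmatched. Without high-signal regions, contigs and dense clusters, the 9-cis retinoic acid share was 70.3% and AM+CD had 30 unmatched. There, 13.3% of unshared 9-cis retinoic acid peaks met DMSO and 13.3% met CD3254. Within 100 kb, 2 listed genes had a 9-cis retinoic acid peak and 1 an AM+CD peak. With −log10 q limits in both lists, unmatched counts thus fell for 9-cis retinoic acid and rose for AM+CD. The limit of 10 kept 145 of 200 peaks with 9-cis retinoic acid and 218 of 227 with AM+CD. It was therefore not equally strict in the lists and removed more possible partners of AM+CD peaks, so these directions are not a result about the treatments. The cause was not tested. The lowest summit pileup was 6 fragments in the 9-cis retinoic acid list and 11 in the AM+CD list, which limits the precision of the weakest peaks.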
